A study of Bos taurus with 29 samples.

Results

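Glandular epithelium (GE) and stroma (ST) of the bovine endometrium were compared in cows with low progesterone (P4), on 16 of the 29 samples of the series, namely all 7 labelled as glandular cells with P4low and all 9 labelled as stromal cells with P4low. All 16 came from Holstein dairy cows with a healthy uterus, biopsied at 45 days postpartum according to the sample labels, and the labels place P4low below a plasma limit of 1 ng/mL. They came from 9 of the 13 cows, numbered here in the order of their first sample. Cows 3, 6, 8, 10, 11, 12 and 13 gave both GE and ST, while cows 1 and 7 gave ST alone. The 7 samples of high P4 cows were left out, and the 6 samples of luminal epithelium (LE) from low P4 cows were used for levels only.

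The endometrium lines the uterus. Its glands are epithelial tubes that release nutrients and signalling proteins into the uterine lumen, on which the early conceptus depends before it attaches. The stroma around the glands is connective tissue, rich in fibroblasts and extracellular matrix, and also holds vessels and migrating immune cells. Stromal cells are known to signal to the glands through growth factors, and both compartments carry receptors for the ovarian steroids. According to the study, the low P4 cows were in part still without ovarian cycles and in part cycling, near estrus. These states were not told apart here.

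GE and ST were cut out of frozen, stained sections by laser under the microscope, on the form of the tissue. According to the methods of the study, the cells from ST may include fibroblasts, immune cells and endothelial cells, and contamination of such ST samples was negligible in an earlier report. In such bulk samples, each made from 2.5 ng of RNA, fewer cells of a type and less RNA per cell cannot be told apart. The files name 37925 transcripts by Ensembl identifiers and pair none of them with a gene, so markers of glands, fibroblasts, vessels, smooth muscle or immune cells could not be looked up and the labels were not checked against them. For the same reason no sequence is printed, and transcripts are described by their level, their length and their behaviour in each cow. The estimated counts of the samples summed to 25023722 to 31060024 in GE (median 28672246) and to 24860445 to 33209181 in ST (median 28811686).

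The first question was which transcripts differ between glands and stroma of the same cow. Of 25855 transcripts tested, 6943 differed, which is 26.9%, at an adjusted p of at most 0.05 in edgeR's quasi-likelihood test with the cow as a block. Of these, 3867 were higher in GE (15.0% of those tested) and 3076 were higher in ST (11.9%). In this fit the ST samples of cows 1 and 7 have no partner and carry no information on the difference, which thus rests on 7 pairs. A log2 difference is GE minus ST throughout, so that 1 stands for a doubling in GE. The median log2 difference of all tested transcripts was 0.05.

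The directions differed less in number than in size. The median log2 size was 1.90 (3.72-fold) for transcripts higher in GE and 1.36 (2.57-fold) for those higher in ST. At least 2-fold differences were reached by 2811 transcripts higher in GE (10.9% of those tested) and by 2126 higher in ST (8.22%). At least 4-fold, the numbers were 1876 and 690 of the 25855 tested (48.5% of the GE calls and 22.4% of the ST calls). At least 16-fold, they were 1178 (4.56% of those tested) and 134 (0.518%), and at least 64-fold, 629 and 38 (16.3% and 1.24% of the calls). Large differences thus lay mostly on the side of the glands. Fitted folds of this size partly rest on counts at or near 0 in the other compartment. Of the 1178, 97 had a count of 0 in all 7 paired ST samples, and of the 134, 8 had a count of 0 in all 7 GE samples. When each library of the lower compartment was set to no less than a floor of 3 counts, 782 of the 1178 and 20 of the 134 still reached a 16-fold ratio of mean CPM (counts scaled to library size by TMM) over the 7 pairs. The floor was not separated from the change of measure, from the blocked fit to a ratio of means. The fall in number can thus not be put down to the floor alone.

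**Figure D1:**
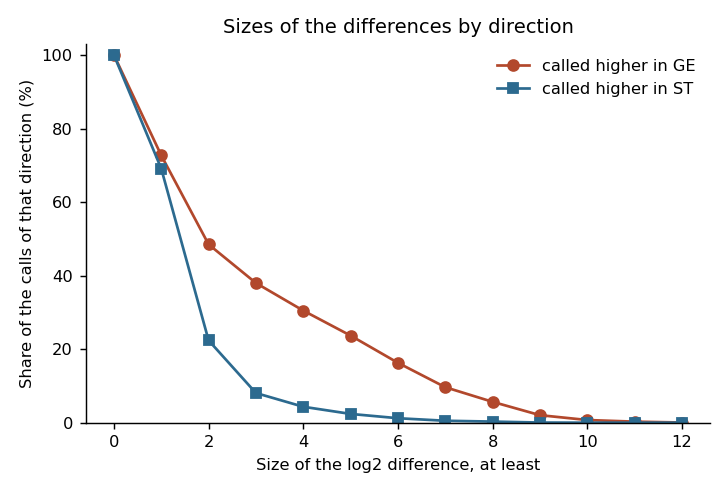
Share of the transcripts called higher in GE (circles) and higher in ST (squares) whose log2 difference is at least the size on the x axis (edgeR, blocked by cow). At a size of 4, which is 16-fold, 30.5% of the GE calls and 4.36% of the ST calls remain.

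The side on which transcripts differed also changed with their level. Levels are given as TPM (the share of all transcripts in a sample, scaled for transcript length), as the higher of the GE and ST means. Among the 187 transcripts of at least 1000 TPM, 63 (33.7%) were higher in ST and 16 (8.56%) were higher in GE. The median log2 difference was -1.01 for those 63 and 4.18 for those 16. Between 100 and 1000 TPM, 435 of 1665 transcripts (26.1%) were higher in ST and 270 (16.2%) in GE. Between 10 and 100 TPM the order turned, with 1783 of 7799 (22.9%) higher in GE and 1375 (17.6%) in ST. Between 1 and 10 TPM, 1509 of 9993 (15.1%) were higher in GE and 1049 (10.5%) in ST. Of the same 187, 104 (55.6%) had a 95% interval of the difference within 2-fold in either direction. Calls among the most abundant transcripts were thus more often on the ST side and of about a doubling, and those on the GE side were fewer and larger.

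**Figure D2:**
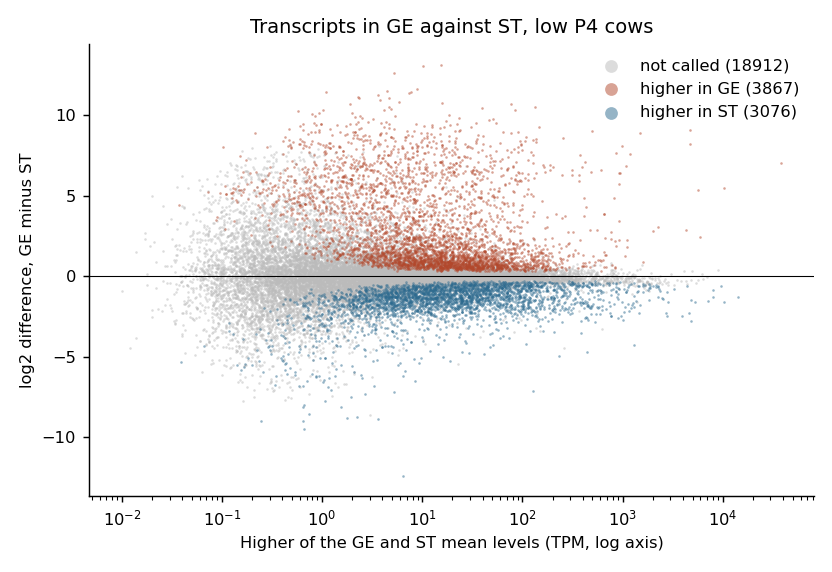
log2 difference between GE and ST for each of 25855 transcripts (1 point each) against the higher of their GE and ST mean levels in TPM (log axis). Points are coloured by edgeR's call, with 3867 higher in GE and 3076 higher in ST, and the calls higher in GE reach further from 0 than those higher in ST.

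Many transcripts held nearly the same level in glands and stroma. The 95% interval of the log2 difference lay within 2-fold in either direction for 7828 transcripts (30.3% of those tested), 831 of which also passed the test for a difference. The share was 52.9% between 10 and 100 TPM and 63.1% between 100 and 1000 TPM. Under 1 TPM it was 1.21%, where the interval was wide, with a median of 3.09 on the log2 scale to either side. Of the 100 most abundant transcripts of each compartment, 76 stood in both lists. Of these 76, 59 had an interval within 2-fold, 20 were called higher in ST and 0 were called higher in GE by edgeR. Of the 24 transcripts in the GE list alone, 11 were called higher in GE, and of the 24 in the ST list alone, 20 were called higher in ST.

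Single cows were then examined, first for the same sign over all pairs. The sign of the difference in CPM was the same in each of the 7 cows for 3149 of the 3867 transcripts called higher in GE (81.4%) and for 2448 of the 3076 called higher in ST (79.6%). Of all 25855 tested it was the same for 6722, in either direction, and of the 18912 not called for 1125. The calls were made on the same 7 pairs, so this agreement is in part built in. Stricter is that the 7 GE samples and all 9 ST samples do not overlap. This held, with the same sign in each pair, for 1346 transcripts higher in GE (5.21% of those tested) and for 254 higher in ST (0.982%). With fewer samples a rule of no overlap is easier to meet, and the numbers changed most without cow 6 or 13. The number higher in ST was 596 without cow 6 (25377 tested) and 488 without cow 13 (25593 tested). It was 270 (cow 12) to 350 (cow 11) without 1 of the other cows. The number higher in GE was 1590 without cow 6 and 1734 without cow 13. Without both cows, 1038 of 25046 tested were higher in ST and 1996 in GE.

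Next, calls were made without a cow and then measured in that cow, which had no part in them. Of the 2611 transcripts called higher in GE from the other cows, 98.2% were higher in GE in cow 3 as well, where 51.2% of all tested transcripts were higher in GE. Of the 2639 called higher in ST, 95.9% were higher in ST in cow 3, against 45.3% of all tested. In cow 12, the shares were 96.4% of 2953 and 97.3% of 2257. They were 95.7% and 93.3% in cow 8, 94.1% and 94.6% in cow 11, and 92.7% and 87.1% in cow 10. Cow 13 was lowest, with 86.9% of 3543 and 83.4% of 3003, and cow 6 had 92.3% and 91.0%. Over these 7 cows, 48.5% to 51.2% of all tested transcripts were higher in GE and 43.4% to 48.6% higher in ST. The direction of the calls thus held for most transcripts in each cow.

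The sizes varied more than the directions. For the GE calls made without it, the median log2 difference (of CPM + 1) was 1.79 in cow 3, 1.76 in cow 12, 1.63 in cow 10, 1.60 in cow 8 and 1.39 in cow 11. Cow 13 had 0.89 and cow 6 had 0.86. The medians fitted to the other cows ran from 2.05 (without cow 13) to 2.51 (without cow 3), above the median in the cow in each case. The fitted values lack the added 1 and come from the samples in which the calls were made, so the measures are unlike. For the ST calls, the median was -1.84 in cow 12, -1.21 in cow 3, -1.17 in cow 11, -1.14 in cow 8 and -0.89 in cow 10. Cow 6 had -0.68 and cow 13 had -0.63. Cows 6 and 13 therefore had the smallest contrast in both directions.

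**Figure D3:**
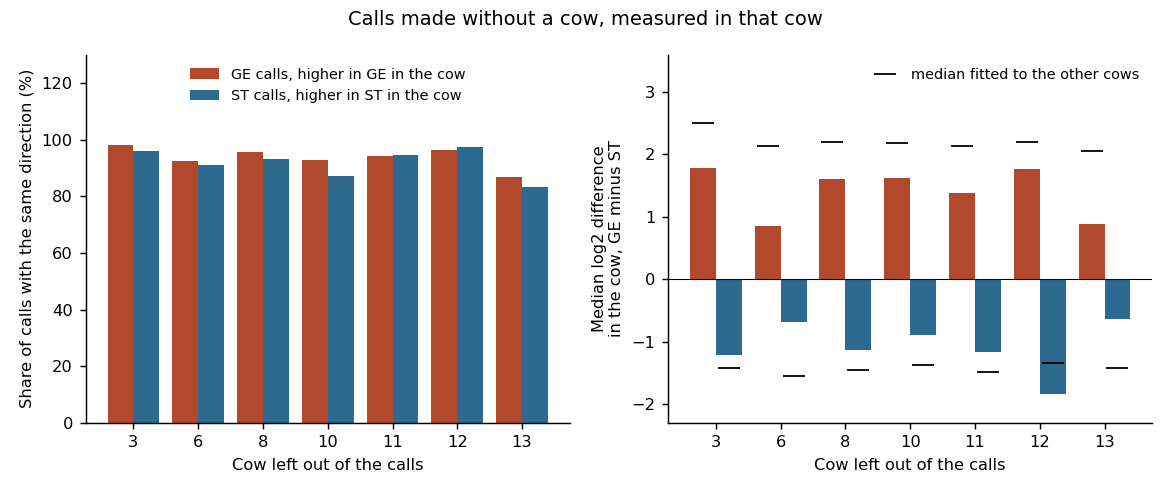
Left, share of the calls made without a cow that had the same direction in that cow, for GE calls and ST calls; right, their median log2 difference in that cow (bars), with the median fitted to the other cows as a dash. Cows 6 and 13 show the smallest medians in both directions, at 0.86 and 0.89 for GE calls and at -0.68 and -0.63 for ST calls. Bars use CPM + 1 and dashes do not, so the measures are unlike.

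The third view was how much of a library these transcripts fill. In the GE library of the cow left out, transcripts called higher in GE held a median of 15.7% of the TPM, from 13.1% in cow 11 to 31.2% in cow 10. In the ST library of the same cows they held 3.43%, from 3.0% in cow 11 to 5.75% in cow 6. Transcripts called higher in ST held 29.4% of the ST libraries, from 25.1% in cow 8 to 39.4% in cow 13. They still held 15.6% of the GE libraries, from 8.23% in cow 12 to 26.6% in cow 13. The glands thus carried a large amount of the RNA that is higher in the stroma, and the stroma little of the RNA that is higher in the glands. Part of this follows from the sizes of the differences given above. Transcripts that were not called made up a median of 66.5% of GE and 64.8% of ST libraries.

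The last view used transcripts far higher in 1 compartment of the other cows, with at least 50 TPM there and at least 20 times the mean of the other compartment. Between 105 and 137 transcripts met this for GE, depending on the cow left out, but between 2 and 8 for ST. In the GE samples, the GE transcripts held 3.29% of the TPM in cow 3, 3.30% in cow 6, 3.68% in cow 11, 8.98% in cow 13, 10.2% in cow 12, 11.8% in cow 8 and 18.0% in cow 10. A single transcript, ENSBTAT00000006297.5, made up 14.6% (cow 12) to 69.7% (cow 13) of these sums, and without it they lay between 2.16% in cow 11 and 8.86% in cow 10. In the ST samples of the paired cows, they reached 0.0679% of their GE level in cow 10, 0.373% in cow 3, 0.387% in cow 8, 0.473% in cow 12 and 1.33% in cow 11. The level was 5.11% in cow 13 and 10.0% in cow 6. Without the single transcript, which was left out after seeing the data, it was 8.74% in cow 13, 10.0% in cow 6 and 0.133% to 1.05% in the other 5. In cows 1 and 7, with ST alone, it was 1.92% and 0.928% of the mean GE level of the paired cows. The ST samples of cows 6 and 13 thus held the highest levels of these transcripts among the 9, and the same cows had the smallest contrast between GE and ST. The part of these levels in the smaller contrast was not tested. The GE transcripts were higher in GE in all 7 pairs (two-sided exact sign-flip permutation test, p = 0.0156, the smallest that 7 pairs allow). Each set was chosen for this direction, from cows that recur in the choice of the other sets. The p-value is therefore nominal, and no conclusion is drawn from it.

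For the few ST transcripts, the level in GE was 0.360% of that in ST in cow 10, 1.54% in cow 12, 1.55% in cow 11, 31.9% in cow 13, 37.6% in cow 3, 62.9% in cow 8 and 138% in cow 6. Their summed level in ST differed widely between these cows. It was 1.48 TPM in cow 3 (0.558 in GE), 42.2 in cow 10, 44.6 in cow 12 and 58.6 in cow 11. In cows 8, 6 and 13 it was 604, 1730 and 2690 TPM. The percentage of cow 3 thus rests on levels close to 0. The ST transcripts were higher in ST in 6 of 7 pairs (two-sided exact sign-flip permutation test, p = 0.0312). This p-value is nominal too, since the sets were chosen in the same way. With any 1 of cows 3, 7, 8, 10, 11, 12 or 13 left out, the same test was not passed, with p between 0.0625 and 0.375. A limit of 5 times in place of 20, chosen after seeing the data, gave 180 to 227 transcripts for GE and 36 to 84 for ST. At this limit, the ST transcripts had a median of 23.5% of their ST level in GE (8.50% to 55.5%), and the GE transcripts 5.35% of their GE level in ST (0.987% to 14.5%). These shares follow in part from the sizes of the differences given above and were not tested against each other. For the ST transcripts, the share was highest in the GE sample of cow 6, at 55.5%, and next in that of cow 8, at 41.7%.

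GE libraries held more kinds of transcripts than ST libraries. Thinned to the same total, 21837 ± 701 transcripts (SD, n = 7) had a count of at least 10 in GE and 20973 ± 509 (SD, n = 9) in ST. GE was higher in all 7 pairs, by 926 ± 513 transcripts (SD; two-sided exact sign-flip permutation test, p = 0.0156). The GE values ran from 20516 in cow 13 to 22475 in cow 6, and the ST values from 20082 in cow 13 to 21787 in cow 6, so that the groups overlap but each cow's pair does not cross. With a limit of 10 TPM, 8483 ± 1203 transcripts (SD, n = 7) passed in GE and 7753 ± 717 (SD, n = 9) in ST, and GE was higher in 5 of 7 pairs (two-sided exact sign-flip permutation test, p = 0.0625).

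**Figure D4:**
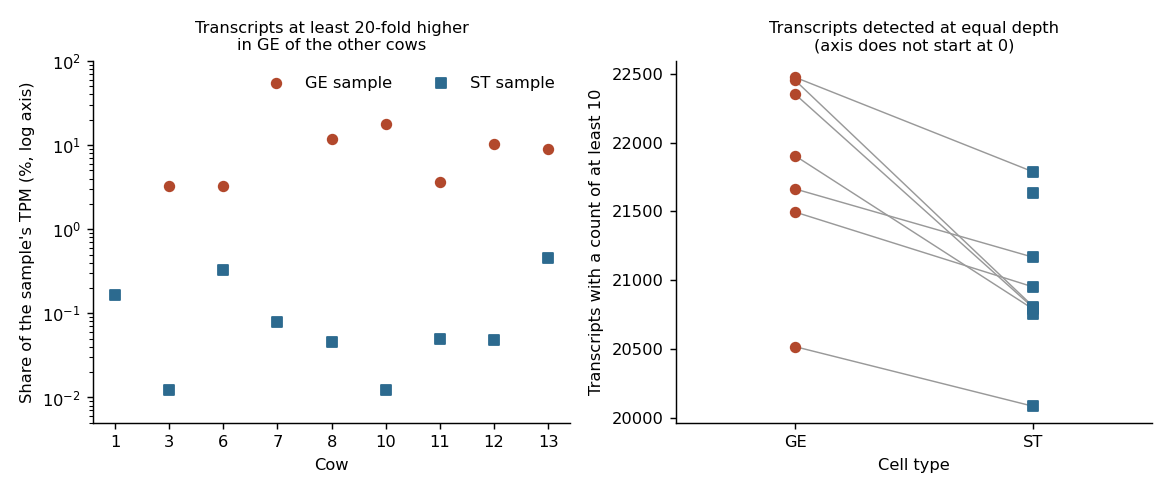
Left, share of each sample's TPM (log axis) held by transcripts at least 20-fold higher in GE of the other cows, in the GE sample (circles) and ST sample (squares) of each cow; right, transcripts with a count of at least 10 at equal depth, with lines joining the samples of a cow. The GE samples lie between 3.29% and 18.0% and the ST samples between 0.0122% and 0.459%, and each of the 7 lines falls from GE to ST.

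The part of a library held by its most abundant transcripts was not shown to differ. The 100 most abundant transcripts of a sample held 31.4% ± 5.41 of the TPM in GE (SD, n = 7) and 31.5% ± 3.16 in ST (SD, n = 9; two-sided exact sign-flip permutation test over 7 pairs, p = 0.969). The 10 most abundant held 11.9% ± 4.37 in GE and 8.96% ± 1.05 in ST (p = 0.109 in the same exact test). The 1000 most abundant held 66.6% in GE and 69.5% in ST (p = 0.0781 in the same exact test). In counts, the 100 most abundant held 21.5% in GE and 24.6% in ST, and GE was higher in 1 of 7 pairs (p = 0.0781 in the same exact test). The sign of the difference thus turned with the number of transcripts taken. For the spread between cows no difference was shown either. Over 18089 transcripts with a mean CPM of at least 1 in both compartments, the median SD of log2(CPM + 1) over the same 7 cows was 0.53 in GE and 0.52 in ST, and the SD was larger in GE for 51.5% of them. The mean distance of a cow from its compartment's mean differed by 0.00234 (two-sided exact sign-flip permutation test over 7 pairs, p = 0.922).

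Single abundant transcripts of the glands, in contrast, varied widely between cows. Of the transcripts whose samples do not overlap, 233 had a mean of at least 50 TPM and were higher in GE. Their highest GE sample exceeded the lowest by a median of 4.81 times over 7 cows, and 45 of them (19.3%) varied at least 10-fold. Among the 57 such transcripts higher in ST, the median was 3.03 times over the same cows, and 1 (1.75%) varied at least 10-fold. The larger differences between the compartments on the GE side leave room for a wider spread without overlap, so the numbers are a description.

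The values in each sample are given for 4 transcripts, chosen in each direction for the largest difference and for the highest level among calls with the same sign in all 7 pairs and no overlap in CPM. ENSBTAT00000006297.5, of 890 bases, was the most abundant of the non-overlapping calls at least 2-fold higher in GE. Its level in GE was 10592 TPM in cow 3, 11075 in cow 6, 14829 in cow 12, 15211 in cow 11, 62573 in cow 13, 64510 in cow 8 and 91557 in cow 10. In ST it was 4.36 TPM in cow 10, 17.2 in cow 3, 125 in cow 12, 162 in cow 8, 264 in cow 11, 343 in cow 7, 608 in cow 1, 1111 in cow 6 and 2208 in cow 13. The lowest GE sample thus lay above the highest ST sample, and cow 10, with the highest level in GE, had the lowest in ST. In cow 10 this transcript made up 9.16% of the TPM of the glands. It had a log2 difference of 7.02 with a standard error of 1.40 (adjusted p = 0.0072, edgeR). It was abundant in LE too, at 17031 TPM in cow 3, 17760 in cow 6, 18447 in cow 12, 22935 in cow 11, 64950 in cow 13 and 65847 in cow 10. Cows 10 and 13 were the highest of these 6 cows in GE and in LE alike, while cow 8 has no LE sample.

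ENSBTAT00000011124.5, of 2132 bases, had the largest difference among the non-overlapping calls of at least 50 TPM in GE. Its level in GE was 27.4 TPM in cow 11, 33.6 in cow 10, 36.9 in cow 13, 51.6 in cow 3, 96.6 in cow 6, 143 in cow 8 and 149 in cow 12. In ST its count was 0 in cows 3, 8, 10 and 11, 3 in cow 13, 4 in cow 12, 7 in cow 7, 9 in cow 6 and 92 in cow 1, where it reached 1.87 TPM. Glands and stroma were far apart in each cow. Its log2 difference was 10.68 with a standard error of 0.61 (adjusted p = 0.00014, edgeR) over the 7 pairs, which do not include cow 1, and 8.14 without the block, where cow 1 counts. In LE it stayed between 0.869 and 1.83 TPM in 6 cows, so that this transcript was high in the glands and low in the luminal epithelium.

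ENSBTAT00000024572.4, of 1849 bases, was the most abundant of the non-overlapping calls at least 2-fold higher in ST. Its level in ST was 2056 TPM in cow 7, 2157 in cow 8, 2191 in cow 10, 2504 in cow 13, 3269 in cow 1, 4132 in cow 12, 4567 in cow 6, 4885 in cow 3 and 9491 in cow 11. In GE it was 270 TPM in cow 12, 462 in cow 8, 550 in cow 10, 563 in cow 13, 727 in cow 3, 1468 in cow 11 and 2526 in cow 6. On the TPM scale the GE sample of cow 6 thus exceeded the ST samples of cows 7, 8, 10 and 13, while in CPM, on which the rule of no overlap rests, it had 2790 against at least 2950 in ST. The log2 difference was -2.46 with a standard error of 0.34 (adjusted p = 0.0017, edgeR). In LE it had a mean of 1090 TPM ± 737 (SD, n = 6), near the GE mean of 938 ± 797 (SD, n = 7).

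ENSBTAT00000061276.3, of 1613 bases, had the largest difference among the non-overlapping calls of at least 50 TPM in ST. Its level in ST was 18.3 TPM in cow 1, 36.7 in cow 8, 45.2 in cow 13, 46.4 in cow 6, 50.9 in cow 7, 56.7 in cow 10, 63.2 in cow 12, 111 in cow 3 and 114 in cow 11. In GE it was 1.26 TPM in cow 12, 2.41 in cow 3, 3.01 in cow 8, 4.44 in cow 10, 5.27 in cow 13, 7.80 in cow 11 and 24.3 in cow 6. The GE sample of cow 6 was the highest here as well, above the ST sample of cow 1 in TPM and just below it in CPM (22.5 against 22.7). The log2 difference was -3.86 with a standard error of 0.57 (adjusted p = 0.0021, edgeR). Its mean was 6.93 TPM in the glands, while ENSBTAT00000011124.5 had a mean of 0.257 TPM in the stroma. Among calls with overlapping samples, 6 of at least 50 TPM in ST had larger differences, from -4.19 to -7.12.

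**Figure D5:**
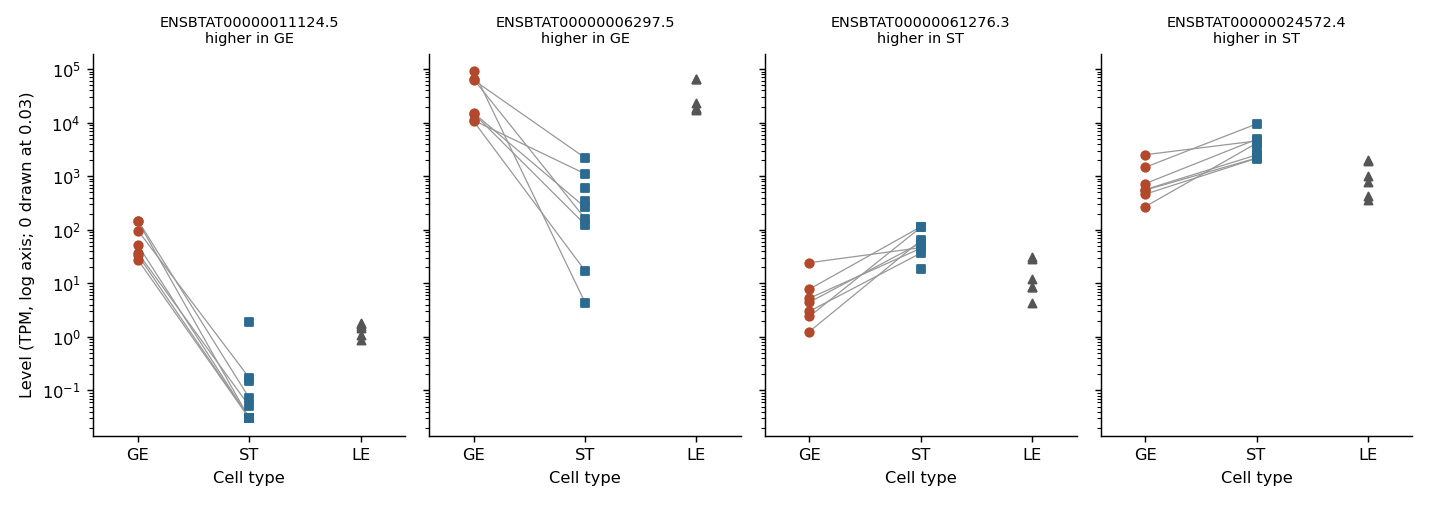
Level in TPM (log axis) of the 4 named transcripts in GE, ST and LE of low P4 cows, with 1 point per sample, lines joining GE and ST of a cow, and values of 0 drawn at 0.03. The 2 transcripts on the left are higher in GE and the 2 on the right are higher in ST, and the lines on the left are steeper.

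Transcripts present in 1 compartment and not detected in the other were few. Of all 37925 transcripts, 16 had a count of at least 10 in all 7 GE samples and of 0 in all 9 ST samples. They had a median of 2.87 TPM in GE and at most 7.48. For the reverse, a count of at least 10 was asked of 9 ST samples and 0 of 7 GE samples. It was met by 1 transcript, at 6.48 TPM in ST. When up to 3 counts were allowed in each sample of the other compartment, the numbers were 40 and 1, and the highest of the 40 had a mean of 40.1 TPM. Complete separation of this kind was thus rare in both directions. Fewer transcripts met it on the ST side, where the rule asks for counts in 9 samples rather than 7.

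LE of the same group of cows, with 6 samples, gave the level of these transcripts in the other epithelium. Of the 1346 non-overlapping transcripts higher in GE, 807 (60.0%) had a mean level in LE of at least 50% of that in GE, and 184 (13.7%) had at most 10%. On the log scale of TPM, the LE mean lay nearer to GE than to ST for 936 of them (69.5%). Of the 254 higher in ST, the LE mean lay nearer to ST for 37 (14.6%). The median level of these 254 was 16.8 TPM in ST, 5.54 in GE and 5.59 in LE. Of all calls, LE was nearer to GE for 63.8% of those higher in GE and nearer to ST for 20.1% of those higher in ST. These levels were not tested, since the transcripts were chosen on the GE and ST samples.

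The shares of calls also varied with transcript length. The median length was 2331 bases for calls higher in GE, 2156 for calls higher in ST and 2254 for transcripts not called. Under 1000 bases, 11.7% of 2737 tested transcripts were higher in GE and 12.6% in ST, while from 2000 to 4000 bases these were 15.9% and 11.5% of 10692.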

How the data were processed

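Full-length cDNA from 2.5 ng of RNA was amplified in 10 cycles and each library in 12 further cycles. With Salmon 1.1.0 and Ensembl bovine transcripts (release 98, ARS-UCD1.2), the authors computed and deposited estimated counts per transcript, not normalized, with TPM values that Salmon computed. Of the estimated counts above 0, 73.8% were not whole, so counts were rounded. Reads shared by similar transcripts are split by estimation.

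Transcripts reaching 10 counts in 3 or more of the 16 samples were tested with edgeR 4.0.16 in R 4.3.3 (TMM, quasi-likelihood, cow as block, Benjamini-Hochberg over 25855 transcripts). The standard error is the log2 difference over the root of the F statistic, and 95% intervals use its degrees of freedom. That cows pair the samples comes from the titles, which name the animal. The deviations of GE and ST from their group means correlated within each cow (0.109 to 0.562, median 0.391 over 7 cows), with a median of -0.033 between cows. Within a compartment, each sample is a different cow, and no libraries were identical (highest correlation of log2 CPM 0.9396).

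Alternatives were RLE scaling, 2 other filters, DESeq2 1.42.0, no block, limma 3.58.1 voom, length offsets, the 14 paired samples and leaving out each cow. The fit was tested on simulated counts of this design. The comparison, lists and rules were chosen with earlier results of these data known. The fixed gene lists and markers could not be used, since no table at hand pairs Ensembl transcripts with genes. The rule for named transcripts then took, per direction, from calls with the same sign in 7 pairs and no overlap in CPM, the largest difference at 50 TPM or more and the highest level at 2-fold or more. The high P4 samples were not used here. Depth is counted in estimated read pairs, and floors cover counting error only. Plots were made with Python 3.11.15 and matplotlib 3.10.9.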

Additional observations from a re-analysis of the deposited data

Results flagged for a closer look

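In groups of 7 or 9 samples, 18 sets of values were examined for a sample far from the others by Dixon's criterion, and 5 met it. Chance alone meets it in about 1 in 20 where values have a normal distribution. Levels in TPM and their percentages can be skewed, where that rate can be higher, so the 5 are given as a description. ENSBTAT00000011124.5 was at 1.87 TPM in the ST sample of cow 1, against at most 0.171 in the other ST samples. ENSBTAT00000006297.5 was at 2208 TPM in the ST sample of cow 13, with the next at 1111. ENSBTAT00000061276.3 was at 24.3 TPM in the GE sample of cow 6, with the next at 7.80. ENSBTAT00000024572.4 was at 9491 TPM in the ST sample of cow 11, with the next at 4885. Transcripts at least 20-fold higher in GE of the other cows reached 10.0% of their GE level in the ST sample of cow 6, with the next at 5.11% in cow 13.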

How the results depend on the processing

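Calls shared with the main fit kept their direction under every alternative run, with 0 transcripts called in opposite directions. Of the main calls, 72.6% were called again without the replicate block and 73.4% without cow 12. The count of 0 does not cover the calls that were lost. The number of calls was 5931 without the replicate block, where 62.9% were higher in GE against 55.7% with it, and 5038 were shared. DESeq2 called 9974, of which 4690 were higher in ST, and limma voom called 8876. Leaving out 1 cow gave 5210 (cow 12) to 6944 calls (cow 7), and GE calls were in the minority without cow 3 (49.7%) or cow 10 (48.7%). At least 16-fold higher in ST were 237 with DESeq2, 89 with limma voom and, with 1 cow left out, 86 to 164. Non-overlapping transcripts with the same sign numbered 1600, and 3034 when cows 6 and 13 were both left out, a choice made after seeing the data. Of these, 1038 were higher in ST, against 254 with all cows and 270 (without cow 12) to 596 (without cow 6) with 1 cow left out. The few ST transcripts stood at a median of 28.7% of their ST level in GE at a limit of 10 times (exact sign-flip permutation test, p = 0.0938), and at 4.45% to 82.8% with 1 cow left out. The share of TPM in the 10 most abundant transcripts was higher in GE by 2.83 percentage points, while the difference (GE minus ST) was -0.0496 in the 100 most abundant. The distance between cows was -0.00716 (GE minus ST) with a pseudocount of 0.1. None of these 3 passed its test. The named transcripts kept direction and call in all 72 combinations of a named transcript and an alternative setting. They were chosen from these same samples as non-overlapping calls, so this follows in large part from the choice. The causes of these changes were not tested. The 95% interval of a log2 difference reached a median of 3.09 to either side below 1 TPM, 0.90 from 1 to 10 TPM and 0.37 to 0.44 above, before adjustment over all transcripts, so that doublings can be missed at any level and most of all at low ones.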
